A study of Homo sapiens with 42 samples.

Results

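The genes described here are 42 genes of mitosis and of the G2 phase that precedes it, taken by name from 19775 genes measured with at least 1 probe set of their own. They cover 10 roles: a pair of genes of chromosome structure and proliferation (MKI67, TOP2A), 5 genes of CDK1, its cyclins and its activator, 5 of mitotic kinases and their activator, 4 of the spindle checkpoint, 6 of the centromere and kinetochore, 7 kinesin motors, 4 spindle and microtubule binding proteins, 4 genes of cytokinesis, 4 of anaphase onset, and the transcription factor FOXM1. Where a gene had several probe sets (22 of the 42 genes), the brightest over all arrays was used. Mean log2 levels of the 42 genes ran from 7.59 to 11.77, against a median of 6.18 over all genes. Shares and spreads given for all genes therefore include many dimmer genes, and genes of like level were not compared. The question was whether these genes moved as one block after cetuximab in each cell line, and how their levels differed among untreated lines.

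Expression was measured on Affymetrix hgu133plus2.0 arrays, 42 in all, with 3 arrays in each of 14 conditions. The lines tested were the head and neck squamous cell carcinoma lines SCC25, SQ20B, SCC61, SCC047, SCC090 and 93VU147T. Each had 3 arrays of cells exposed to cetuximab, an antibody that blocks EGFR, at 100 nM for 24 hours. Each also had 3 control arrays labelled as without treatment (the methods name PBS). The labels give the time of 24 hours for treated arrays only, so whether controls were cultured as long is not known. If they were not, time in culture cannot be told apart from cetuximab. Record numbers of all treated arrays also follow those of all controls, so deposit set and treatment coincide. A further 3 arrays of SCC1 held only treated cells and 3 of HaCaT, an immortalized keratinocyte line, only untreated cells, so both stood outside the tests. Each group is 1 established line in culture, and no source used here says whether the 3 arrays came from separate cultures, so the p-values measure the spread between these arrays, which may be technical.

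Before a cell divides, it accumulates CDK1 and its cyclin partners in G2, condenses its chromosomes, attaches them to the spindle through kinetochores, and holds anaphase back with the spindle checkpoint until every chromosome is attached. Many genes of this program are transcribed late in the cell cycle. The DREAM complex represses them, and the MYB-MuvB complex and FOXM1 activate them. These factors act through a short promoter element called the cell cycle genes homology region (CHR), often next to CCAAT boxes bound by NF-Y. Transcripts of these genes are abundant in G2 and M and low in resting cells. In RNA from whole cultures, fewer cells in G2 and M and less of these RNAs per cell cannot be told apart.

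Promoter stretches are printed for some of the genes whose values recur below, since the CHR is what many of them share outside the measured levels. RefSeq promoter entries (GRCh38.p14, 250 bases before to 50 after the gene start) were found for 36 of the 42 genes. For 4 genes with several entries the first was used. Each line below is a stretch of 30 bases, 5′ to 3′ on the gene's strand, with the CHR word in capitals, TTTGAA, or TTCAAA where the match lies on the other strand.
MKI67 (chr10:128126453-128126482, minus strand): ttagcgccagaaTTTGAAtcttcgttttcg
PLK1 (chr16:23678848-23678877, plus strand): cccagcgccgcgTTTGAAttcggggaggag
BUB1B (chr15:40161034-40161063, plus strand): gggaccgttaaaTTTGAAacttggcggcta
CENPA (chr2:26786026-26786055, plus strand): cggagcgagcgaTTTGAAcgcgagcggcgc
SPC25 (chr2:168890416-168890445, minus strand): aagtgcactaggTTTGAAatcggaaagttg
KIF11 (chr10:92593090-92593119, plus strand): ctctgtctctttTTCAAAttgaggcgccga
DLGAP5 (chr14:55191565-55191594, minus strand): cggtgcggcaagTTTGAAtttcgtggaggc
CEP55 (chr10:93496597-93496626, plus strand): gcagccgcgggaTTCAAActcccggaagcg
KIF14 (chr1:200620733-200620762, minus strand): gcggggcgcccaTTCAAAttgcggccttct
HMMR (chr5:163460598-163460627, plus strand): gggagatttgaaTTTGAAaccggtagggag
ESPL1 (chr12:53268256-53268285, plus strand): cagccgcggataTTTGAAaggagggtctgg
The HMMR stretch holds the word a second time directly before the capitals. The words TTTGAA or TTCGAA, searched on both strands, were present in 27 of the 36 promoters (75%) and in 16.4% of all 35116 promoter entries. Within 50 bases of the gene start the shares were 61.1% and 5.01%. CCAAT, searched on both strands, was present in 29 of the 36 (80.6%) against 34.6% of all entries, and both elements were present in 23 (63.9%) against 6.38%. These matches describe letters and not bound sites.

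Over the 6 lines the mitosis and G2 genes did not share 1 direction. After cetuximab 25 of the 42 were called lower in SCC25 and none higher, while 33 were called higher in SCC61, 31 in SCC047 and 38 in 93VU147T. In SCC61 and in SCC047 1 gene was lower, in SQ20B 10 were higher and 3 lower, and in SCC090 no gene was called. A call is an adjusted p under 0.05 from limma, which fitted 12 group means on the log2 values with Benjamini-Hochberg adjustment over all 19775 genes. All changes are log2 values, cetuximab minus control, 3 arrays against 3. A moderated F test of equal change in the 6 lines was past the threshold for all 42 genes (59% of all genes were called by this test). Each of the 42 genes was called in at least 1 line, as were 71.4% of all genes. Of the 42, 26 were higher in each of SCC61, SCC047 and 93VU147T, a pattern of 5.03% of all genes. Of these 26, 16 were also lower in SCC25 (1.02% of all genes).

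**Figure D1:**
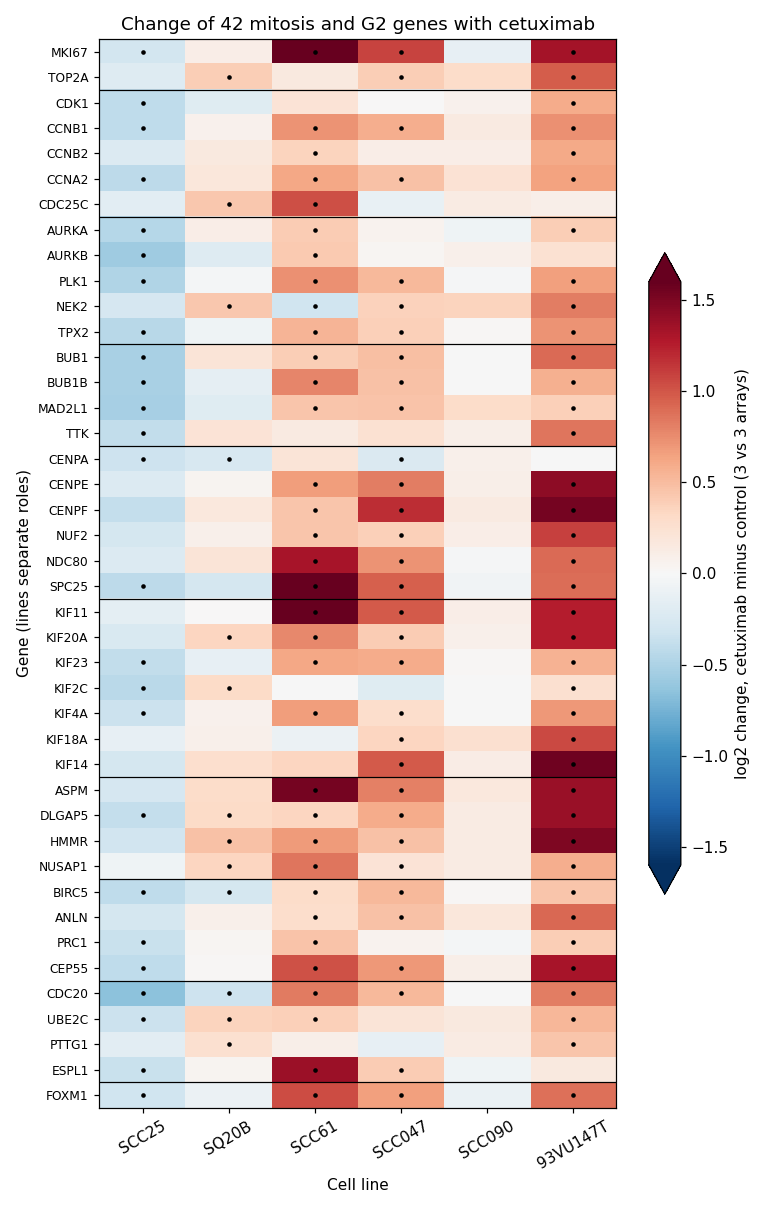
Colour gives the log2 change, cetuximab minus control (3 arrays against 3), of each of the 42 genes (rows, grouped by role) in 6 cell lines (columns), with dots at an adjusted p under 0.05 from limma and the darkest colours holding all larger values. The SCC25 column is blue in all 42 rows with 25 dots, the 93VU147T column is red in 41 rows with 38 dots, and the SCC090 column has no dot.

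The mean level of the 42 genes on each array gives the size of these shifts. In SCC25 it lay between 9.33 and 9.42 on the 3 control arrays and between 9.01 and 9.09 on the treated arrays (log2). In SQ20B it went from 9.65 to 9.71 in controls to 9.73 to 9.82 after treatment, and in SCC61 from 9.36 to 9.46 to 9.95 to 10.10. In SCC047 the ranges were 9.05 to 9.27 and 9.53 to 9.65. In 93VU147T, the line with the lowest untreated level, they were 8.66 to 8.78 and 9.52 to 9.57. Control and treated arrays overlapped only in SCC090, at 9.42 to 9.66 and 9.57 to 9.72.

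**Figure D2:**
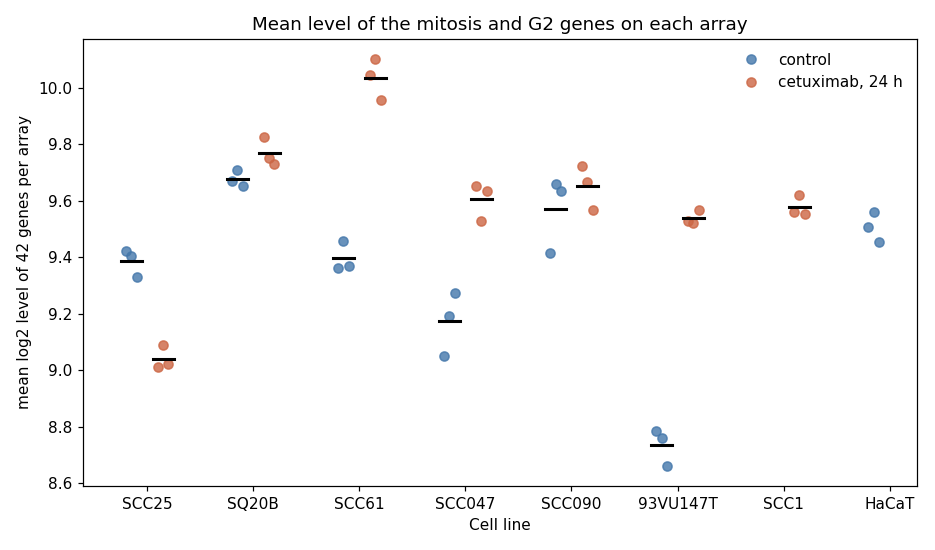
Each point is 1 array and gives the mean log2 level of the 42 genes (vertical axis) by cell line and treatment, with a black line at the mean of each group of 3 (none for HaCaT, where the names of 2 arrays mark a repeat). Treated arrays lie below controls in SCC25, above them in SQ20B, SCC61, SCC047 and 93VU147T, and among them in SCC090.

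SCC25 had the lowest survival in the deposited labels (7.61% of control, 1 value without an error). The labels give 28.65% for SQ20B, 31.2% for SCC047, 35.57% for 93VU147T, 39.07% for SCC090 and 40.16% for SCC61. A relation of survival to the changes was not tested. In SCC25, 25 of the 42 genes were lower and none was higher. Of all genes, 7.3% were lower and 8.66% higher. All 42 changes were below 0, from -0.66 to -0.07, with a median of -0.35. Their spread was narrow, with an SD over genes of 0.13 against 0.24 over all genes. For 30 of the 42 genes all treated arrays lay below all controls, as for 16.7% of all genes. Spindle checkpoint genes were lower in 4 of 4, and the kinases and their activator in 4 of 5. For CDK1, its cyclins and its activator the count was 3 of 5, and for anaphase onset and for cytokinesis it was 3 of 4 each. Kinetochore genes were lower in 2 of 6 and kinesins in 3 of 7.

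CDC20, which activates the anaphase-promoting complex, fell most in SCC25. Its control arrays read 10.96, 10.90 and 11.10 and its treated arrays 10.45, 10.21 and 10.32, without overlap. That is a change of -0.66 (SE 0.11, adjusted p = 3.79e-05 from limma), or 1.58-fold lower. AURKB, the kinase of the chromosomal passenger complex, read 8.89, 8.89 and 9.09 in controls and 8.45, 8.30 and 8.40 after cetuximab, a change of -0.57 (SE 0.10, adjusted p = 0.000134). MAD2L1, a checkpoint protein that holds CDC20 in check, read 9.82, 9.89 and 9.65 against 9.11, 9.43 and 9.25, a change of -0.53 (SE 0.13, adjusted p = 0.00387). In all 3 genes the groups of arrays stood apart. Against the mean change of the other 5 lines, the change in SCC25 was lower for 42 of the 42 genes (10.5% of all genes), with a median difference of -0.76.

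In SQ20B the genes went both ways. Of the 42, 10 were higher and 3 lower, where 18.4% of all genes were higher and 14.9% lower, so neither share was far above that of all genes. The median change was 0.09 (range -0.33 to 0.47), and the SD over genes of 0.22 lay below the 0.38 of all genes. Treated arrays were all above controls for 17 genes and all below for 7, at shares of 23.5% and 22.8% over all genes. The 10 higher genes were TOP2A, CDC25C, NEK2, KIF20A, KIF2C, DLGAP5, HMMR, NUSAP1, UBE2C and PTTG1. They included 3 of the 4 spindle and microtubule binding proteins. Probe sets of 1 gene differed in this line beyond the calls, in both directions. MAD2L1 was not called on its brightest probe set (-0.20), but its second, nearly as bright, changed by -0.76 (adjusted p = 1.04e-07 over all probe sets). The second probe set of CCNA2, a cyclin of S phase and G2, changed by -0.25 (adjusted p = 0.0286 over all probe sets) where the brightest gave 0.18. For NUSAP1 the dimmer probe set gave -0.26 (adjusted p = 0.101 over all probe sets) against a rise of 0.35. The rises of TOP2A and KIF2C were not called on their second probe sets. These gave 0.30 (adjusted p = 0.169 over all probe sets) and 0.15 (0.283). Other dimmer probe sets rose where the brightest was not called. They gave 0.31 for CCNB1 (adjusted p = 0.0222 over all probe sets) and 0.70 for CENPF (0.0148). For ASPM and KIF23 such probe sets gave 1.20 (0.00608) and 0.58 (0.0449). Without control replicate 3, the only array of the 6 lines that was scanned in another batch, 8 genes were higher.

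HMMR, a spindle protein that is also a hyaluronan receptor, rose most in SQ20B. Control arrays read 10.39, 10.34 and 10.21 and treated arrays 10.93, 10.74 and 10.68, a change of 0.47 (SE 0.11, adjusted p = 0.00143 from limma) without overlap. NEK2, a centrosome kinase, went from 9.25, 9.18 and 9.07 to 9.67, 9.58 and 9.56 (0.44, SE 0.11, adjusted p = 0.0029). On the dimmer NEK2 probe set the change was 0.10 and was not called (adjusted p = 0.613). CDC25C, the phosphatase that activates CDK1, went from 7.28, 7.40 and 7.54 to 7.93, 7.80 and 7.78 (0.44, SE 0.11, adjusted p = 0.00174). This call was lost on the next-brightest probe set (0.37, adjusted p = 0.0648) and with the mean of all probe sets (0.16, adjusted p = 0.185). The dimmest of its probe sets fell by 0.31 (adjusted p = 0.0298 over all probe sets).

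CDC20, BIRC5 and CENPA were lower in SQ20B, against the majority. CDC20 read 11.12, 11.27 and 11.23 in controls and 10.83, 10.87 and 10.91 after treatment, a change of -0.33 (SE 0.11, adjusted p = 0.0155 from limma). BIRC5, the survivin subunit of the passenger complex, changed by -0.28 (SE 0.11, adjusted p = 0.0416), from 9.27, 9.64 and 9.53 to 9.25, 9.15 and 9.20. CENPA, the histone H3 variant of centromeres, changed by -0.26 (SE 0.09, adjusted p = 0.0174), from 8.27, 8.65 and 8.42 to 8.18, 8.12 and 8.26. The arrays of each gene did not overlap, but these calls were weak. That of CDC20 was lost without treated replicate 1 (adjusted p = 0.0572) or control replicate 2 (0.0605). That of CENPA was lost without treated replicate 2 (adjusted p = 0.0733) or control replicate 2 (0.183). That of BIRC5 was lost without treated replicate 1, 2 or 3 or control replicate 2 or 3, at adjusted p from 0.0594 to 0.218, after arrays were centred on the same median (adjusted p = 0.0524) and with the mean of all probe sets (-0.21, adjusted p = 0.112). With each line fitted alone, the calls of BIRC5 (adjusted p = 0.0559) and CENPA (0.0727) were lost too. On the second-brightest BIRC5 probe set the fall was larger, at -0.51 (adjusted p = 0.00267 over all probe sets). The dimmer BIRC5 probe sets gave -0.18 and 0.14, neither past the threshold. Against the other 5 lines, SQ20B was lower for 18 of the 42 genes (15% of all genes, and 11 without treated replicate 3). It was higher for KIF2C alone (17.8%), a microtubule-depolymerizing kinesin whose rise in SQ20B was not called on its second probe set.

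In SCC61, 33 genes were higher and 1 was lower, at 24.4% and 19.8% of all genes. The median change was 0.50 (range -0.32 to 2.27). Here the genes spread as widely as genes at large, with an SD of 0.52 against 0.49. Treated arrays were all above controls for 34 genes and all below for 1 (27.9% and 26% of all genes). The genes not called were TOP2A, CDK1, TTK, CENPA, KIF2C, KIF18A, KIF14 and PTTG1.

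SPC25, a subunit of the NDC80 kinetochore complex, had the largest change of the 42 genes in any line. In SCC61 its controls read 6.85, 7.15 and 7.22 and its treated arrays 9.26, 9.43 and 9.32, a rise of 2.27 (SE 0.13, adjusted p = 3.29e-15 from limma), or 4.81-fold. KIF11, the kinesin that pushes spindle poles apart, rose by 1.65 (SE 0.14, adjusted p = 1.87e-11), from 7.52, 7.83 and 7.96 to 9.23, 9.67 and 9.35. MKI67, which coats mitotic chromosomes and is read as the Ki-67 proliferation marker, rose by 1.63 (SE 0.10, adjusted p = 1.51e-14), from 8.38, 8.27 and 8.44 to 10.01, 10.04 and 9.94. NDC80, another subunit of the complex of SPC25, rose by 1.32 (SE 0.10, adjusted p = 1.31e-12). ESPL1, the separase that cuts cohesin at anaphase, rose by 1.37 (SE 0.09, adjusted p = 2.72e-14), which exceeded its mean change in the other 5 lines by 1.33 (adjusted p = 6.37e-13).

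NEK2 ran against the rest in SCC61. It read 10.15, 10.48 and 10.23 in controls and 9.99, 10.09 and 9.84 after cetuximab, a change of -0.32 (SE 0.11, adjusted p = 0.0233 from limma) without overlap of the arrays. The call was lost without treated replicate 3 (adjusted p = 0.118) or control replicate 2 (adjusted p = 0.161). The difference between its change in SCC61 and the mean change elsewhere was -0.66 (SE 0.12, adjusted p = 5.74e-05). Against the other 5 lines, SCC61 was higher for 24 of the 42 genes (22.6% of all genes) and lower for NEK2 and KIF18A (15.3%).

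In SCC047, 31 genes were higher and 1 was lower (17.3% and 19% of all genes). The median was 0.46 (range -0.23 to 1.18), and the SD over genes of 0.34 was close to the 0.36 of all genes. Treated arrays were all above controls for 32 genes and all below for 1 (20.3% and 23.5%). Higher genes made up 6 of 7 kinesins and 5 of 6 kinetochore genes, but 2 of the 5 of CDK1, its cyclins and its activator. CENPF, a large kinetochore and nuclear matrix protein of G2, rose by 1.18 (SE 0.14, adjusted p = 3.2e-08 from limma), from 7.92, 7.91 and 8.18 to 9.21, 9.13 and 9.19. MKI67 rose by 1.08 (SE 0.10, adjusted p = 6.31e-10), from 8.33, 8.25 and 8.62 to 9.65, 9.31 and 9.47, and KIF11 by 0.98 (SE 0.14, adjusted p = 1.31e-06).

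CENPA was the gene that fell in SCC047. It read 7.89, 8.05 and 8.09 in controls and 7.82, 7.85 and 7.69 after treatment, a change of -0.23 (SE 0.09, adjusted p = 0.0364 from limma). This call was lost with the replicate number as a block (adjusted p = 0.0606) and without treated replicate 1 or 3 or control replicate 2 or 3, at adjusted p from 0.0509 to 0.169. In the mean of the 6 lines CENPA was the only gene of the 42 called lower, at -0.09 (adjusted p = 0.0373). Against the other 5 lines, SCC047 was higher for 17 of the 42 genes (13.7% of all genes) and lower for CDC25C and PTTG1 (17.1%). The 17 became 6 when control replicate 1 was left out, 10 without treated replicate 1 and 9 without treated replicate 3.

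In 93VU147T the genes rose most. Of the 42, 38 were higher and none was lower, at 15.8% and 18.8% of all genes, with a median of 0.77 (range -0.01 to 1.55) and an SD of 0.42 against 0.35 over all genes. For 40 genes all treated arrays lay above all controls (18.3%), and for none below (23.5%). Kinesins were higher in 7 of 7, and spindle checkpoint, cytokinesis and spindle binding genes in 4 of 4 each. The kinesin count rests on the brightest probe sets. The second probe sets of KIF2C (0.15, adjusted p = 0.262 over all probe sets) and KIF23 (-0.39, 0.199) were not called in 93VU147T. CDC25C, AURKB, CENPA and ESPL1 were not called. Against the other 5 lines, 93VU147T was higher for 38 of the 42 genes (11.3% of all genes) and lower for none (16.1%), with a median difference of 0.60.

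KIF14, a kinesin of the cytokinetic bridge, rose most in 93VU147T. It went from 6.62, 6.58 and 6.81 to 8.14, 8.15 and 8.39, a change of 1.55 (SE 0.15, adjusted p = 2.55e-09 from limma), or 2.94-fold. CENPF went from 7.51, 7.70 and 8.18 to 9.26, 9.14 and 9.56 (1.53, SE 0.14, adjusted p = 3.35e-10). HMMR went from 8.33, 8.33 and 8.24 to 9.72, 9.78 and 9.89 (1.50, SE 0.11, adjusted p = 1.02e-11). No treated array overlapped a control in these 3 genes. The KIF14 change exceeded the mean change of the other 5 lines by 1.27 (SE 0.17, adjusted p = 9.79e-07). In SCC61, by contrast, KIF14 was not called (0.35, adjusted p = 0.0665), and there the test against the remaining lines gave -0.18 (SE 0.17, adjusted p = 0.465).

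In SCC090 none of the 42 genes was called by limma, where 0.516% of all genes were higher and 0.885% lower. At an unadjusted p under 0.05 there were 5 of the 42 (12.2% of all genes), namely TOP2A, CCNA2, NEK2, MAD2L1 and KIF18A. Without control replicate 2 or without control replicate 3, 1 gene was called higher. The median change was 0.10 (range -0.13 to 0.36), 29 changes lay above 0 and 13 below, and the SD over genes of 0.11 compared with 0.17 over all genes. NEK2 had the largest change, 0.36 (SE 0.11, adjusted p = 0.125), with controls at 9.30, 9.91 and 9.94 and treated arrays at 10.14, 10.06 and 10.01. Treated arrays were all above controls for 2 genes and all below for 1 (6.65% and 8.99% of all genes). Against the other 5 lines the change was lower for 15 of the 42 genes (9.67% of all genes) and higher for none (5.4%). The 15 became 8 without treated replicate 3.

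The genes whose change differed most among lines by the F test were MKI67 (F = 66.3, adjusted p = 1.2e-13 from limma), SPC25 (60.7), CEP55 (54.3), ESPL1 (47.4), BUB1B (39.9), DLGAP5 (37.4), FOXM1 (36.3) and NDC80 (35.3). CEP55, which recruits the abscission machinery, changed by -0.40 in SCC25, 1.01 in SCC61, 0.69 in SCC047 and 1.32 in 93VU147T, each past the threshold. BUB1B, the checkpoint protein BubR1, changed by -0.52, 0.78, 0.46 and 0.56 in the same lines. DLGAP5, a spindle-stabilizing protein, changed by -0.39, 0.34, 0.59 and 1.38, and by 0.30 in SQ20B. FOXM1, a transcription factor of many of these genes, changed by -0.32, 1.04, 0.65 and 0.88. In SQ20B FOXM1 read -0.10 (adjusted p = 0.48).

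**Figure D3:**
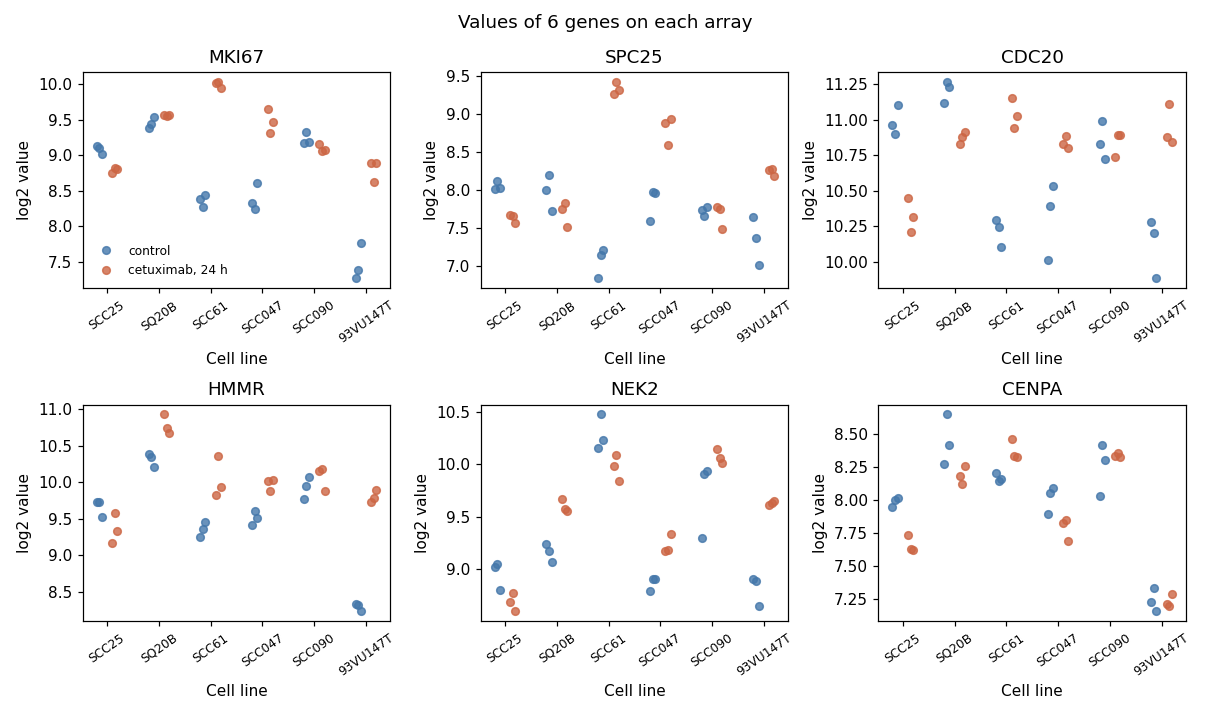
Log2 values (vertical axes, separate scales) of 6 genes on each of 36 arrays by cell line, controls in blue and cetuximab in orange. Only called changes are named. MKI67, SPC25 and CDC20 lie higher after cetuximab in SCC61, SCC047 and 93VU147T and lower in SCC25, and CDC20 also lies lower in SQ20B. HMMR lies higher in SQ20B, SCC61, SCC047 and 93VU147T. NEK2 lies lower in SCC61 and higher in SQ20B, SCC047 and 93VU147T. CENPA lies lower in SCC25, SQ20B and SCC047.

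How far the 42 genes moved as a block can be described from their profiles of change over the lines. The median correlation between 2 genes of the set over the 6 line changes was 0.80, as a description over 6 points that share their arrays between genes. For 33 of the 42 genes the profile correlated above 0.8 with the mean of the others, as did 3.54% of all genes. The lowest values belonged to NEK2 and CDC25C, at 0.39 each. The set also moved together between arrays of a group. The median correlation of 2 genes' deviations from their group means was 0.316, against 0.011 over 10000 pairs of genes drawn from the array.

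In the mean of the 6 lines, 36 genes were higher and 1 was lower (22.8% and 23.1% of all genes), with a median of 0.25. ASPM, a spindle pole protein, rose by 0.65 (SE 0.06) and KIF11 by 0.64 (SE 0.06), the largest mean changes. KIF2C, AURKB, CDK1, AURKA and BIRC5 were not called. Leaving out 1 line at a time gave between 28 genes higher, without 93VU147T, and 39, without SCC25.

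Untreated levels of these genes differed among lines for 41 of 42 by the F test (77.1% of all genes). PLK1, the kinase that drives mitotic entry, was the exception (adjusted p = 0.0698), with line means from 8.44 in SCC090 to 8.79 in SCC25. The widest range was that of CENPF, from 7.80 in 93VU147T to 10.55 in SCC090, or 6.72-fold. ASPM ranged by 2.42 log2 units, from SCC047 to SCC090. CENPE, the kinesin that moves chromosomes to the spindle equator, ranged by 2.34, from 6.12 in 93VU147T to 8.46 in SCC25. CEP55 ranged by 2.13, from 93VU147T to SQ20B.

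Against the mean of the other 5 lines, untreated 93VU147T was lower for 34 of the 42 genes and higher for AURKB and UBE2C (24.5% and 28.6% of all genes), with a median difference of -0.63. CENPE was lower there by a log2 difference of -1.73 (SE 0.11, adjusted p = 1.34e-14 from limma) and TTK, a checkpoint kinase, by -1.54 (SE 0.08, adjusted p = 6.87e-17). Untreated SQ20B was higher for 28 genes and lower for TOP2A and BIRC5 (24.4% and 27.4%), with a median of 0.43 and NDC80 at 1.42. Untreated SCC090 was higher for 27 and lower for 5 (29.3% and 35.3%). ASPM stood highest there, at 1.96, and ANLN, an actin-binding protein of the cleavage furrow, lowest, at -0.98. SCC047 was higher for 3 and lower for 20 (28.3% and 24.2%). In SCC25, 16 were higher and 14 lower (22.7% and 25.3%), and in SCC61, 18 were higher and 14 lower (23.8% and 30.5%).

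**Figure D4:**
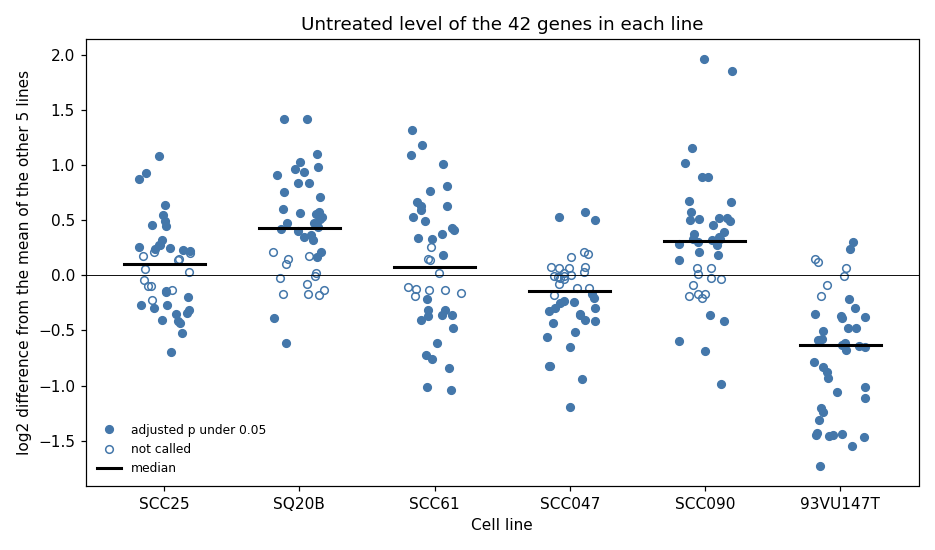
Each point is 1 of the 42 genes and gives its untreated log2 level in a line minus the mean of the other 5 lines, filled at an adjusted p under 0.05 from limma, with a black line at the median. The medians run from -0.63 in 93VU147T to 0.43 in SQ20B.

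The untreated order and the treated order were not the same. Untreated, 93VU147T was the lowest of the 6 lines for 26 of the 42 genes. After cetuximab it was the lowest for 4, SCC25 was the lowest for 32, and SCC61 was the highest for 26. Changes and untreated levels share the control arrays, so these counts are not independent. The same counts were not made over all genes, so whether this order is particular to the set is not known. The SD of line means was smaller after treatment for 25 of the 42 genes, as it was for 60.4% of all genes.

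Further genes of the cell cycle were read from fixed lists for comparison. The shares of all genes called in each line are those given with the 42 genes above. Of 61 other mitosis and G2 genes, 40 were lower in SCC25 and none was higher. In SQ20B 9 were higher and 18 lower, in SCC61 51 and 2, in SCC047 38 and 1, and in 93VU147T 42 and 2. In SCC090 none was called by limma, with 11 at an unadjusted p under 0.05 (12.2% of all genes). Their medians were -0.39, -0.12, 0.68, 0.29, 0.38 and -0.02 in that order. CENPI, a kinetochore protein, and KNL1, the scaffold of checkpoint signalling, had the largest mean changes, 0.66 (SE 0.05, adjusted p = 2.85e-11 from limma) and 0.48 (SE 0.05, adjusted p = 1.4e-09).

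Genes of DNA replication and the G1/S transition, which are transcribed earlier in the cycle under E2F, followed another order of lines. Of 29 measured genes, 24 were lower in SCC25, 26 were lower in SQ20B and 29 were higher in SCC61. In SCC047, 21 were higher and 1 lower, in SCC090 none and 1, and in 93VU147T 5 and 11. Their medians were -0.48, -0.55, 1.54, 0.40, -0.11 and -0.09. In SCC090, 7 of the 29 were at an unadjusted p under 0.05 from limma (12.2% of all genes), and 25 changes lay below 0. For 15 of the 29, all treated SCC090 arrays lay below all controls (8.99% of all genes). The median of the 42 mitosis and G2 genes lay above that of the replication genes by 0.86 in 93VU147T and by 0.63 in SQ20B, and below it by 1.04 in SCC61 (-1.04). In SCC047, SCC25 and SCC090 the gap was 0.06, 0.13 and 0.21. POLA1, the catalytic subunit of DNA polymerase alpha, and CCNE2, a cyclin of the G1/S transition, each had a mean change of 0.31. Both rested on SCC61, without which POLA1 was at 0.03 (adjusted p = 0.507) and CCNE2 at -0.055 (adjusted p = 0.633). Without SCC047 the CCNE2 call was lost as well (0.18, adjusted p = 0.114).

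**Figure D5:**
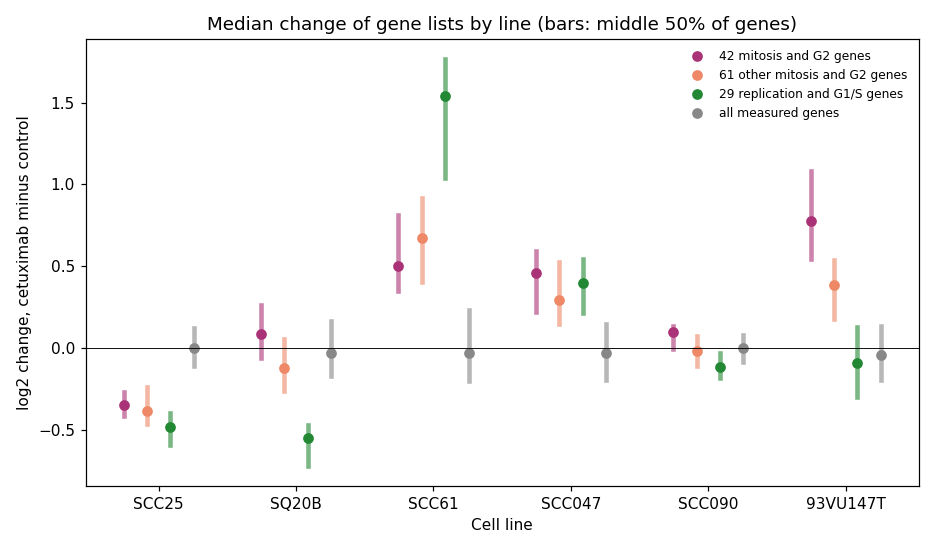
Median log2 change (points) and middle 50% of genes (bars), cetuximab minus control, of 3 gene lists and of all genes in 6 cell lines. Mitosis and replication medians lie together in SCC25 and SCC047, the replication median lies higher in SCC61 (1.54 against 0.50), and the mitosis median lies higher in SQ20B (0.09 against -0.55) and 93VU147T (0.77 against -0.09).

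Of 17 genes of the factors that act on mitotic promoters, 3 were lower in SCC25, 5 were higher and 5 lower in SQ20B, 7 and 3 in SCC61, 6 and 4 in SCC047, none in SCC090 by limma (3 at an unadjusted p under 0.05, as were 12.2% of all genes), and 3 and 5 in 93VU147T. Of all genes, 7.3% were lower in SCC25. Higher and lower shares were 18.4% and 14.9% in SQ20B and 24.4% and 19.8% in SCC61. They were 17.3% and 19% in SCC047 and 15.8% and 18.8% in 93VU147T. Several of the counts lay near these shares. E2F8, a repressor of the E2F family, had a mean change of 0.77 (SE 0.06, adjusted p = 2.85e-11 from limma) and RBL1, the pocket protein p107, of 0.55 (SE 0.13, adjusted p = 0.00088). The RBL1 call was lost without SCC61 (0.23, adjusted p = 0.214) and with another choice of probe set (0.16, adjusted p = 0.0593). Both genes were called higher in SCC61, SCC047 and 93VU147T. Genes with a CHR word (27) and without it (9) had median changes of 0.90 and 0.65 in 93VU147T, 0.47 and 0.37 in SCC047, 0.61 and 0.62 in SCC61, -0.34 and -0.27 in SCC25, 0.08 and 0.25 in SQ20B, and 0.10 and 0.13 in SCC090. These were not tested.

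Other measures that moved with treatment are given here, and their part in the changes was not tested. The difference between the 3' and 5' ACTB control probe sets, a sign of RNA quality, shifted with cetuximab by 0.29 in SQ20B, 0.11 in SCC047 and 0.07 in SCC25. Treated and control arrays stood apart in these 3 lines. With overlap, it shifted by 0.06 in SCC61, 0.06 in SCC090 and -0.002 in 93VU147T. The same difference for GAPDH shifted less in SQ20B (0.07), SCC047 (0.04) and SCC25 (0.003), with arrays apart in SQ20B and SCC047. For GAPDH it was -0.02 in SCC61, 0.03 in SCC090 and -0.03 in 93VU147T, with overlap. The epithelial markers KRT5 and CDH1 stood at 10.59 or more and 10.22 or more in every group, while KRT14 ranged from 4.85 to 14.23 over groups. The mean of the 4 measured squamous markers was higher on all treated than on all control arrays in each of the 6 lines. It went from 8.93 to 9.10 in controls to 9.54 to 9.56 in SQ20B, and from 9.34 to 9.50 to 10.06 to 10.12 in 93VU147T. Of the 4 squamous markers, 3 were called higher in SQ20B and in 93VU147T. In SCC25, SCC61 and SCC047 2 were called higher, in SCC090 1, and none was called lower. In SCC047 2 of the 4 changes lay below 0. The mean of 6 fibroblast markers went from 6.42 to 6.51 in controls to 6.92 to 7.00 in SCC25, with 4 of 6 called higher, and from 4.69 to 4.83 to 5.14 to 5.23 in SQ20B, with 2 of 6. It went from 5.65 to 5.72 to 5.81 to 5.89 in SCC61, with 3 of 6 called higher, while 2 of 6 were lower in SCC047 and in 93VU147T. The mean of 4 leukocyte markers went from 4.81 to 4.92 in controls to 4.41 to 4.67 in SCC61, with 3 of 4 called lower, from 5.30 to 5.34 to 5.15 to 5.24 in 93VU147T, with none called, and from 4.87 to 4.99 to 4.99 to 5.08 in SCC25, with 1 called higher. In SCC090 it went from 4.38 to 4.51 to 4.52 to 4.65, with none called. The mean of 4 endothelial markers lay lower after cetuximab, with 1 of 4 called, in SCC61 (4.69 to 4.85, then 4.53 to 4.63), SCC047 (5.14 to 5.17, then 4.91 to 5.07) and 93VU147T (4.96 to 5.02, then 4.81 to 4.91). In the other lines the endothelial means of treated and control arrays overlapped. Over all groups the means of PTPRC lay between 3.87 and 4.30 and those of CD14 between 4.44 and 6.85, and for CDH5 and VWF the ranges were 3.63 to 3.99 and 5.15 to 6.38.

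In the lines outside the tests the 42 genes lay mostly within the range of the 6 lines. Treated SCC1 had an array mean of 9.55 to 9.62. It lay within the range of treated line means for 33 genes, above it for CCNB1, AURKB, PLK1 and FOXM1, and below it for TOP2A, KIF14, DLGAP5, HMMR and PTTG1. Untreated HaCaT, taken as 2 values since the names of 2 of its 3 arrays mark a repeat, although the values did not single that pair out, lay within the untreated range for 36 genes. It lay above it for KIF11, KIF20A, HMMR and NUSAP1 and below it for PLK1 and KIF2C. These lines lay in other scan batches, so line and batch cannot be told apart.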

How the data were processed

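Probe set values of the Affymetrix hgu133plus2.0 array are on the log2 scale and were made by the authors with fRMA (background correction, normalization against a frozen reference and summary of probes). A batch correction, pSVA, appears in the methods too, and its use on this table is not given in the sources used here. The deposited values were analysed with no further scaling. Array medians ran from 5.09 to 5.16, and the number of arrays limits the precision. Scan batches hold 35, 4 and 3 arrays, and of the 36 arrays tested only SQ20B control replicate 3 lies outside the largest. Of 54675 probe sets, 41091 carry 1 gene symbol in the annotation used, which gave 19775 genes, each read from its brightest probe set.

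limma 3.58.1 under R 4.3.3 (lmFit, contrasts.fit, eBayes) fitted 12 group means on 36 arrays with 24 residual and 6.86 prior degrees of freedom. The fit was tested on simulated data. Contrasts were cetuximab minus control per line and over the mean of lines, each line against the other 5 (change and untreated level), and moderated F tests over lines, with Benjamini-Hochberg adjustment over all genes and a threshold of 0.05. Genes are given in full by rule: the 3 largest rises and falls called per line, calls against a line's majority, the 8 largest F values, the 4 widest untreated ranges, and the 2 largest mean changes of each further list. The 42 genes and all lists were chosen with earlier results of these data known. Alternatives were other probe sets, scalings, a filter on dim genes, a replicate block, other sets of arrays, a trend in the variance, a minimum change of 0.5, and each array or line left out. Some listed genes are not reported here.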

Additional observations from a re-analysis of the deposited data

Results flagged for a closer look

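The change with cetuximab differed among the 6 lines by the moderated F test of limma for 42 of the 42 genes (59% of all genes were called by this test). The 8 largest F values were 66.3 for MKI67, 60.7 for SPC25, 54.3 for CEP55, 47.4 for ESPL1, 39.9 for BUB1B, 37.4 for DLGAP5, 36.3 for FOXM1 and 35.3 for NDC80. In each of these 8 genes the change was below 0 in SCC25 and above 0 in SCC61, SCC047 and 93VU147T. The SCC25 change of NDC80 was not called (-0.22, adjusted p = 0.134), nor was the 93VU147T change of ESPL1 (0.16, adjusted p = 0.167).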

How the results depend on the processing

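A required change of at least 0.5 reduced the called genes to 5 lower in SCC25, 0 higher in SQ20B, 21 in SCC61, 16 in SCC047 and 5 in the mean of the lines, since it removes smaller changes by construction. Of the counts given in the next paragraph, no other moved by over 1.5 times under the other probe sets, scalings, filter, array sets, trend or lines left out. The counts of genes lower in SQ20B, SCC61 and SCC047 and those of the further lists were not recomputed. The mean change of CCNE2 reversed to -0.055 without SCC61 (adjusted p = 0.633). Among the values of named genes, 482 kept direction and call, and 25 lost the call, with single arrays left out not counted. The 25 include calls lost by construction to the required change of 0.5. Leaving out single arrays cost further calls of CDC20, BIRC5, CENPA and NEK2.

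With 1 array left out at a time, called genes ranged from 21 to 28 lower in SCC25, 7 to 11 higher in SQ20B, 30 to 34 in SCC61, 26 to 32 in SCC047, 0 to 1 in SCC090, 36 to 39 in 93VU147T and 35 to 37 in the mean. Against the other lines the change gave 39 to 42 lower in SCC25, 11 to 20 lower in SQ20B, 23 to 25 higher in SCC61, 6 to 18 higher in SCC047, 8 to 19 lower in SCC090 and 34 to 38 higher in 93VU147T. Untreated counts ranged from 14 to 16 higher in SCC25, 25 to 29 in SQ20B, 17 to 19 in SCC61 and 23 to 27 in SCC090, and from 15 to 20 lower in SCC047 and 31 to 34 in 93VU147T. The F tests gave 42 in every case for the change and 41 to 42 for untreated levels.

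Whether replicate numbers pair treated and control arrays of a line was not settled. Deviations of 7 of 18 such pairs correlated above 0.1 (range -0.15 to 0.32), and arrays of unlike number were not compared. With the replicate block, 26 genes were lower in SCC25, and 10, 34, 30, 0 and 38 were higher in SQ20B, SCC61, SCC047, SCC090 and 93VU147T, with 37 in the mean and 42 by the F test. Changes near 0.3 or smaller lie close to the threshold with 3 arrays a group.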
